A study of Mus musculus with 2 samples.

Results

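CD antigens are the cell surface molecules by which blood cells are sorted and typed, and their genes were examined here for peaks of the transcription factor Myb in mouse bone marrow. The set was defined by name: every protein-coding gene of the GENCODE vM21 annotation whose symbol is Cd, 1 to 3 digits and at most 1 further lower-case letter, which gave 77 of 21938 protein-coding genes. A peak was assigned to a gene when its summit, the base of highest signal, lay in the gene body or within 10 kb of it. By this rule 41 of the 77 genes had at least 1 Myb peak (53.2%, exact binomial 95% interval 41.5 to 64.7), and the share over all protein-coding genes was 52.6%. The share over all coding genes thus lay inside the counting interval of the set, and the values below show which of its genes carried peaks and where.

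The series held 2 ChIP-Seq samples from bone marrow of WT mice depleted of lineage-positive cells (Lin-), 1 precipitated with an antibody against Myb and 1 with normal rabbit IgG. Cells carrying lineage surface markers had been removed with a depletion kit, and each preparation started from 25000000 cells of a purity above 80%. Each precipitation used 1 µg of chromatin sheared by 14 cycles of sonication and 1.5 µg of antibody, and each library was amplified by 12 cycles of PCR. The Myb peak list held 25793 peaks called against the IgG library, and with 1 library per antibody there was no replicate, so all shares and medians are descriptions of that library and every interval covers counting error only. The list carries no expression values, so the Lin- label could not be checked against the levels of marker genes, and neither the age of the mice nor how many contributed cells was given in the labels.

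Myb is a DNA-binding protein that is abundant in immature hematopoietic cells and is required for adult blood formation. Lineage depletion uses antibodies to antigens of mature T, B, erythroid and myeloid cells, and what is left is rich in hematopoietic stem cells and progenitors (HSPCs). Among these, Cd34 and Cd48 are used to separate stem cells from multipotent progenitors, and Cd44 is an adhesion receptor for hyaluronan present on most of them. The 77 genes were sorted into these 3 stem and progenitor antigens, 40 antigens of mature lineages (15 of T and NK cells, 6 of B cells and 19 of myeloid cells), 10 of activation and costimulation, 7 tetraspanins, 5 complement regulators and 12 others. The lists share no gene, although an antigen can mark several cell types. Cd82 and Cd9, put with the tetraspanins, and Cd38, put with the others, are described below as stem cell markers too.

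The strongest peaks of the 3 stem and progenitor antigens are shown first as sequence. Each is the 101 bp window centered on the summit, from the plus strand of GRCm38 (mm10). Capitals mark a match to the Myb motif, which was searched on both strands as C or T followed by AACGG or AACTG. The Cd44 window is chr2:102867640-102867740, the Cd34 window chr1:194943598-194943698 and the Cd48 window chr1:171687345-171687445.
Cd44: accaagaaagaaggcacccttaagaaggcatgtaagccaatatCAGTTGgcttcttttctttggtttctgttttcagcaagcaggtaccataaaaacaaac
Cd34: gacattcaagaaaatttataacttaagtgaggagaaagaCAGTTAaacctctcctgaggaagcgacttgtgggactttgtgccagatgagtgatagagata
Cd48: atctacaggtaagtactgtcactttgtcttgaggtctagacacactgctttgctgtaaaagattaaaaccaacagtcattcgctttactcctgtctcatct

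The Cd44 window held a match on the minus strand 2 to 7 bp from the summit, and the Cd34 window held one on the minus strand 6 to 11 bp from the summit. The Cd48 window held none, which says only that these letters are absent from it. Over the whole list 16.7% of the windows of this length held a match, so most Myb peaks were without one. How often windows outside peaks hold a match was not counted, so a match alone does not mark a Myb site.

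Cd44, Cd34 and Cd48 each had a peak, and each of these peaks had its own gene as the nearest coding gene. Cd44, on chromosome 2, had 7 peaks, all inside its 90.5 kb body. The strongest lay in an intron 33975 bp from the gene start (chr2:102867304-102868128), with a fold enrichment of 13.4, the ratio of the depth-scaled Myb signal to the local IgG background at the summit. It rested on 55 reads at the summit (exact Poisson 95% interval 41.4 to 71.6), and 98.7% of all Myb peaks were weaker. The next was at the gene start, in the UTR 200 bp from it, with a fold enrichment of 7.90 and 33 reads (22.7 to 46.3). Another intronic peak, 2725 bp from the start, held a Myb motif and had a fold enrichment of 4.94 from 18 reads. The other 4 lay in introns, with fold enrichments of 5.56, 4.31, 3.65 and 3.11 from 20, 15, 14 and 13 reads. The peaks of Cd44 were thus spread over its first 38025 bp, with the highest signal far from the start.

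Cd34, the sialomucin by which human and mouse progenitors are isolated, had 1 peak. It lay in an intron of the 22.5 kb gene, 4829 bp from the start (chr1:194943462-194944264), with a fold enrichment of 8.28 from 31 reads (21.1 to 44.0) and a −log10 q of 13.8. No summit fell within 3 kb of a Cd34 start site. Cd48, a ligand of Cd2 and Cd244 and a member of the SLAM family, also had 1 peak, in an intron 5386 bp from the start (chr1:171687241-171687688). Its fold enrichment was 4.15 from 12 reads (6.20 to 21.0), with a −log10 q of 2.85. The read interval of Cd48 lay below that of Cd34, which in turn overlapped that of Cd44. All 3 antigens were therefore marked inside the gene, and only Cd44 at its promoter.

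**Figure D1:**
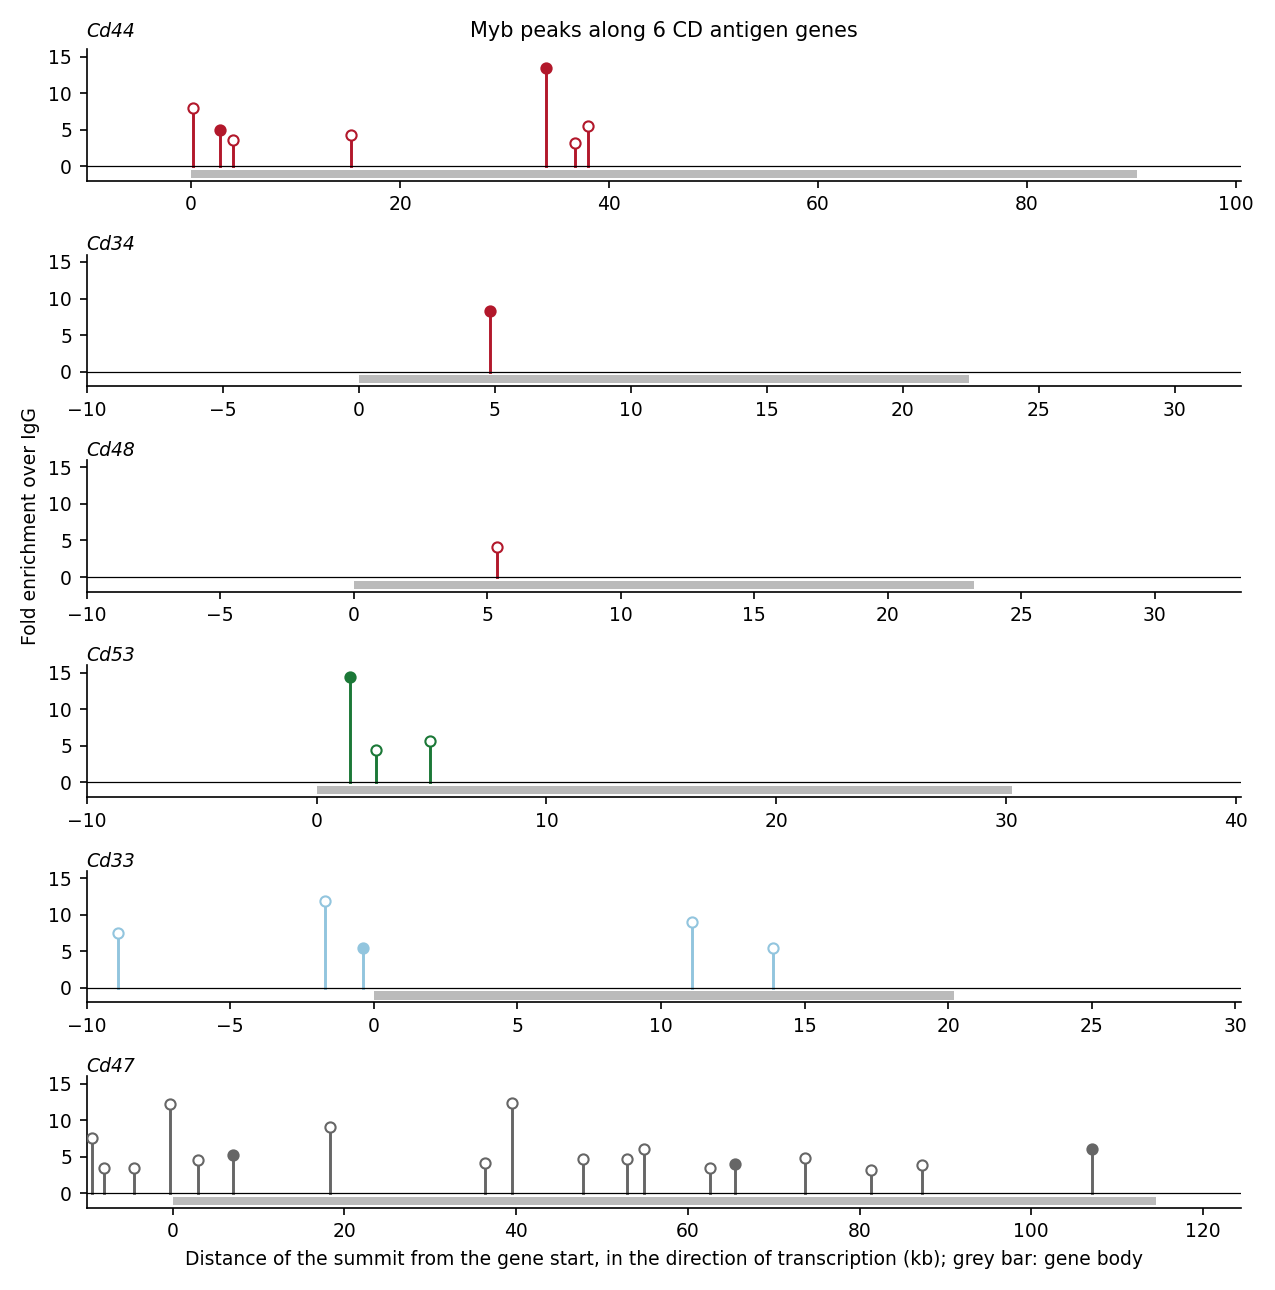
Fold enrichment over IgG of every Myb peak (vertical axis) against the distance of its summit from the gene start in kb (horizontal axis) for Cd44, Cd34, Cd48, Cd53, Cd33 and Cd47; grey bars are gene bodies and filled points hold a Myb motif within 50 bp of the summit. The strongest Cd44 peak (13.4) sits deep in the gene, the single peaks of Cd34 (8.28) and Cd48 (4.15) sit in introns, and Cd47 carries 18 peaks.

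Antigens of mature lineages were compared with the stem and progenitor antigens and with all coding genes. A peak was found at 15 of 40 mature antigens (37.5%, 22.7 to 54.2), beside 52.6% of all protein-coding genes, and at 3 of 3 stem and progenitor antigens (100%, 29.2 to 100), so the 2 intervals overlapped. Within 3 kb of a start site, 8 of the 40 (20.0%) and 1 of the 3 had a peak, beside 39.9% of all protein-coding genes and 27 of the 77 CD antigen genes (35.1%, 24.5 to 46.8). The median fold enrichment of the strongest peak was 6.75 over those 15 genes, 8.28 over the 3 stem and progenitor antigens and 5.72 over all coding genes with a peak. The order of mature antigens and all coding genes turned with the window: with summits in the gene body only the medians were 5.22 and 5.28, and within 3 kb of the gene 5.22 and 5.50. Of the 40, 7 are the Cd209 genes, a family of lectins of dendritic cells that lie in 1 cluster on chromosome 8, and without them 15 of 33 (45.5%) had a peak. For peaks with a −log10 q of at least 5, the counts were 31 of the 77 CD antigen genes, 2 of the 3 stem and progenitor antigens and 12 of the 40 mature ones, beside 35.9% of all protein-coding genes.

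**Figure D2:**
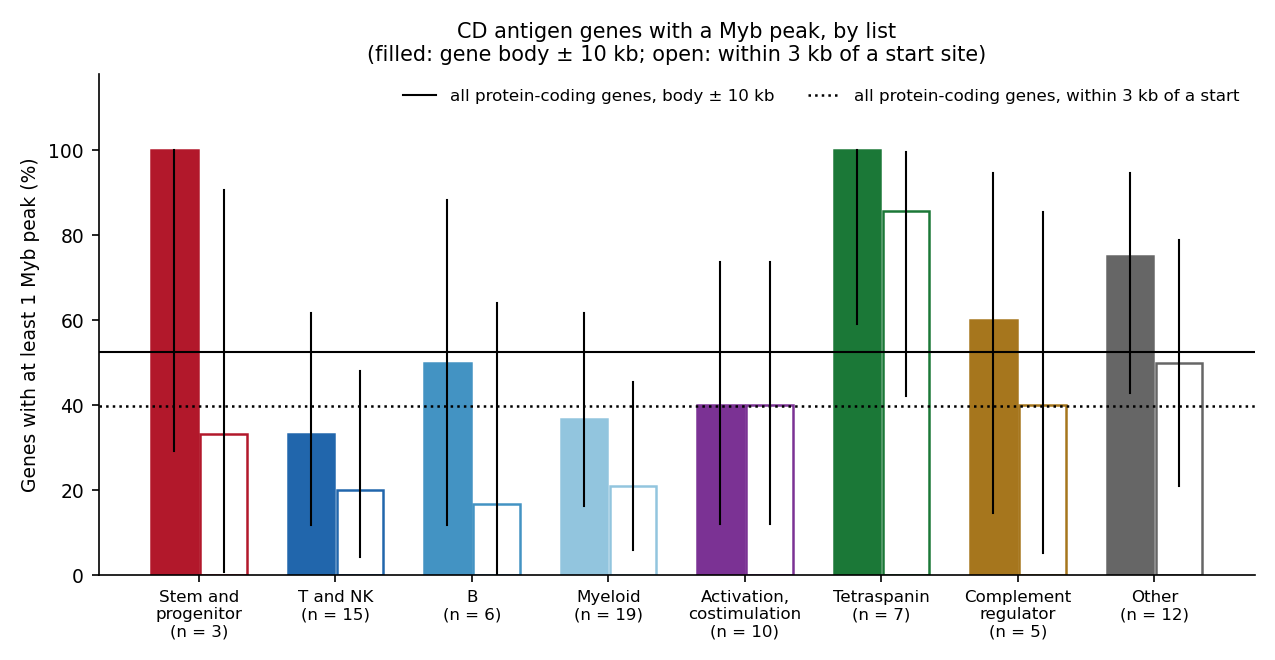
Percent of genes with at least 1 Myb peak in each list of CD antigen genes, in the gene body or within 10 kb (filled bars) and within 3 kb of a start site (open bars), with exact binomial 95% intervals; horizontal lines are all protein-coding genes (52.6%, solid, and 39.9%, dotted). The T and NK (33.3%), myeloid (36.8%), costimulation (40.0%) and B (3 of 6) lists lie below the solid line, and all 7 tetraspanins have a peak.

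Among T and NK cell antigens, 5 of 15 had a peak (33.3%, 11.8 to 61.6), an interval that held the 52.6% of all protein-coding genes. Cd244a, a SLAM family receptor of NK cells, had 6, of which the strongest had a fold enrichment of 7.18 from 36 reads and lay downstream of the gene, nearest to Ly9. At the start of Cd244a itself, 49 bp into the gene, a peak with a Myb motif had a fold enrichment of 4.98 from 25 reads. Cd3g, a chain of the T cell receptor complex, had 3 peaks, the strongest (6.75, 25 reads) downstream of the gene and nearest to Ube4a. Cd3d, the neighboring chain, had 1 peak in a UTR (6.49, 24 reads), which also lay within 10 kb of Cd3g. Cd247, the zeta chain, had 2, the stronger (5.45, 20 reads) in an intron 22831 bp from the start. The fifth marked gene was Cd226, an activating receptor (4.15, 12 reads). No peak was assigned to Cd2, Cd3e, Cd4, Cd5, Cd6, Cd7, Cd8a, Cd28, Cd96 or Cd160.

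Among B cell antigens, 3 of 6 had a peak, and the strongest peak of 2 of the 3 was nearer to another gene. Cd72, an inhibitory receptor of B cells, had 1 peak, downstream of the gene and nearest to Tesk1, with a fold enrichment of 9.27 from 30 reads (20.2 to 42.8). Cd79a, a signaling chain of the B cell receptor, had 3, all outside the gene and nearest to Arhgef1 or Rps19, the strongest at 6.92 from 27 reads. Cd180, a Toll-like receptor homolog, had 2 that were nearest to itself, of which the stronger (5.70, 21 reads) lay 3696 bp upstream of the start. Those without included Cd22 and Cd79b.

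Among myeloid antigens, 7 of 19 had a peak (36.8%, 16.3 to 61.6), an interval that held the 52.6% of all protein-coding genes. Of these 7, Cd33, Cd300a and Cd68 had the highest fold enrichments of the 40 mature antigens. Cd33, a sialic acid-binding lectin of myeloid cells, had 5 peaks, the strongest 1694 bp upstream of the gene start (chr7:43545815-43546531) with a fold enrichment of 11.9 from 45 reads (32.8 to 60.2). A weaker Cd33 peak 369 bp upstream held a Myb motif (5.44, 27 reads), and 2 peaks inside the gene had fold enrichments of 9.05 and 5.43. These 2 lay 11074 and 13889 bp from the gene start, but 183 and 2139 bp from the nearest annotated start site of Cd33. The fifth, 8916 bp upstream (7.56), was nearer to Zfp658. Cd33 was thus marked upstream of the gene start and inside the gene, with 4 of its 5 peaks nearest to itself.

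Cd300a, an inhibitory receptor of myeloid cells, had its strongest peak downstream, 17778 bp from its start, with a fold enrichment of 10.1 from 51 reads (38.0 to 67.1). Cd68, a lysosomal protein of macrophages, had 5 peaks around a gene of 1.94 kb. The strongest Cd68 peak (9.51, 40 reads) was nearest to Eif4a1, and only the peak 312 bp upstream (6.56, 29 reads) was nearest to Cd68. Cd14, the coreceptor for lipopolysaccharide, had 2, the stronger at 8.03 from 30 reads. Cd36, Cd163 and Cd300c had strongest peaks between 3.50 and 6.65. Cd177, Cd207, Cd209a, Cd209b, Cd209c, Cd209d, Cd209e, Cd209f, Cd209g, Cd300e, Cd302 and Cd5l had none.

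The windows under the strongest peaks assigned to Cd33 and Cd3g are shown, without and with a Myb motif near the summit. The Cd3g peak lies 136 bp from a start site of Ube4a and 7674 bp from the nearest of Cd3g. The Cd33 window is chr7:43546072-43546172 and the Cd3g window, in which the match lies 2 to 7 bp from the summit, is chr9:44965339-44965439, both 101 bp of the plus strand of GRCm38 with the motif in capitals.
Cd33: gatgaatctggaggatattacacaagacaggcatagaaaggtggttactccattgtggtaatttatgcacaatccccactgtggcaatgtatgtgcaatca
Cd3g: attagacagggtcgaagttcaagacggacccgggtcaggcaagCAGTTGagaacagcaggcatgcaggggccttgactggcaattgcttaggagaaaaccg

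Counting only peaks whose nearest coding start site belonged to the antigen gene, 12 of the 40 mature antigens and 3 of the 3 stem and progenitor antigens had a peak, beside 42.1% of all protein-coding genes under the same rule. Of the 38 distinct peaks at mature antigens, 24 were nearest to such a gene, while all 9 at Cd44, Cd34 and Cd48 were. The strongest peaks of Cd3g and Cd72 lay 136 and 436 bp from a start site of Ube4a and Tesk1. Those of Cd79a and Cd68 lay 8 and 56 bp from a start site of Arhgef1 and Eif4a1. Whether a peak acts on the gene it was assigned to was not tested.

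Several antigens of the same cells carry symbols outside the naming rule, and they were listed apart. Of 8 of stem and progenitor cells, 6 had a peak (75.0%), beside 52.6% of all protein-coding genes. These included Spn (17.2, 88 reads), Flt3 (16.6, 61 reads, 7 peaks), Cxcr4 (13.3, 63 reads) and Kit (8.71, 31 reads), while Slamf1 and Thy1 had none. Of 8 of mature lineages, 7 had a peak, each with 1, from Cr2 (9.15, 28 reads) and Ms4a1 (7.90, 24 reads) down to Cd8b1, a chain of the Cd8 coreceptor (3.40, 10 reads), and Fcer2a (2.94, 14 reads). The median of the strongest fold enrichments was 11.0 over those 6 and 4.70 over those 7. With these genes added, 9 of 11 stem and progenitor antigens (81.8%, 48.2 to 97.7) and 22 of 48 mature antigens (45.8%, 31.4 to 60.8) had a peak. The shares thus moved closer together, their intervals overlapped, and both intervals held the 52.6% of all protein-coding genes. Among the added genes alone the share was higher at mature antigens (87.5%) than at stem and progenitor antigens (75.0%).

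All 7 tetraspanins, membrane proteins that organize receptors into clusters, had a peak (100%, 59.0 to 100), and 6 of the 7 had one within 3 kb of a start site. Over all protein-coding genes these shares were 52.6% and 39.9%. The median fold enrichment of the tetraspanin peaks was 4.10, beside 4.69 over the peaks of all CD antigen genes and 4.48 over those of all coding genes. Cd53, a tetraspanin of leukocytes, had the highest fold enrichment of all CD antigen genes, 14.4 from 55 reads (41.4 to 71.6), in an intron 1447 bp from the start (chr3:106787801-106790434). Of all peaks in the list, 99.0% were weaker. Its 2 other peaks were also intronic, at 5.72 and 4.47. Cd81, part of the B cell coreceptor, had 4, the strongest (8.34, 37 reads) downstream and nearest to Tssc4, 79 bp from its start site. Cd82, used as a marker of quiescent stem cells, had 6, the strongest 849 bp into the gene (7.18, 36 reads). Cd9, a marker of megakaryocytes and stem cells, had 4 intronic peaks, the strongest at 6.94 from 26 reads. Cd63, Cd37 and Cd151 had strongest peaks of 6.75, 4.10 and 3.14, that of Cd151 47 bp from a start site of Tspan4. The only Cd151 peak within 3 kb of its own start sites had a q-value above 0.05 (2.94, 14 reads, −log10 q 1.19). Tetraspanin genes held 80.6 distinct peaks per Mb of the windows searched, beside 35.8 over the CD antigen genes, 22.4 over mature antigens and 17.0 over all coding genes. These densities were not compared at like gene length. Of the 21938 coding genes 2492 were longer than 100 kb, and of the 77 CD antigen genes 3 were.

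**Figure D3:**
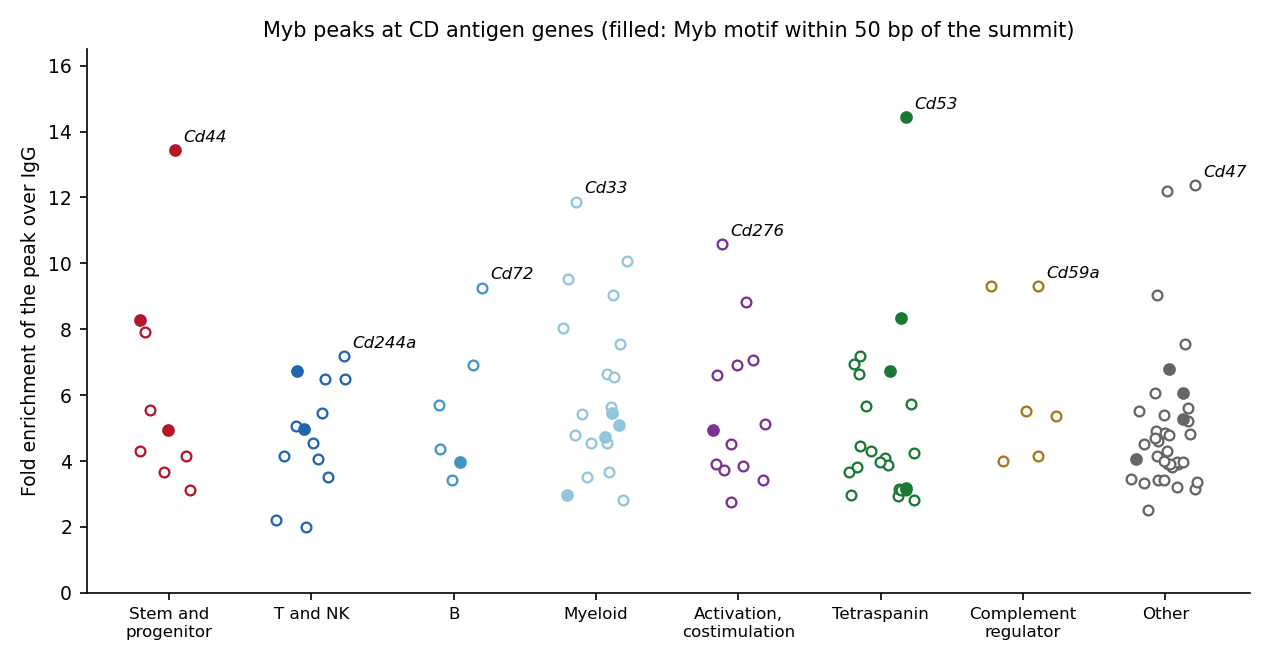
Fold enrichment over IgG (vertical axis) of every Myb peak assigned to a CD antigen gene, by list (horizontal axis), with the strongest of each list named; filled points hold a Myb motif within 50 bp of the summit, and a peak in the windows of 2 genes is drawn for each. Cd53 (14.4), Cd44 (13.4), Cd47 (12.4) and Cd33 (11.9) carry the highest values, and the weakest, 2.01, belongs to Cd244a.

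Among antigens of activation and costimulation, 4 of 10 had a peak (40.0%, 12.2 to 73.8), an interval that held the 52.6% of all protein-coding genes. Cd276, a B7 family ligand, had 2, the stronger in an intron at 10.6 from 50 reads (37.1 to 65.9). Cd69, the early activation antigen, had 4, the strongest 489 bp upstream of the start at 8.84 from 27 reads. Cd274, an inhibitory ligand of T cells, had 6 peaks, of which 5 lay within 3 kb of a start site and the strongest had a fold enrichment of 7.06 from 22 reads. Cd274 starts close to Plgrkt, and 3 of its peaks were nearest to that gene. Cd80, a ligand of Cd28, had 1 (3.92, 14 reads). Cd27, Cd40, Cd70, Cd83, Cd86 and Cd200 had none.

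Of the complement regulators, which protect cells from lysis by complement, 3 of 5 had a peak. Cd59a and Cd59b, neighboring copies of 1 gene on chromosome 2, shared their strongest (9.31, 35 reads, 24.4 to 48.7), which lay in an intron of Cd59a 2883 bp from its start. The mapping quality filter of the authors removes reads that match both copies equally well, so such reads do not enter these counts. Cd55 had 1 peak, 419 bp into the gene (5.37, 22 reads), and Cd46 and Cd55b had none.

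Of the 12 remaining antigens, 9 had a peak (75.0%, 42.8 to 94.5), an interval that held the 52.6% of all protein-coding genes. Cd47, the signal that protects cells from phagocytosis, had 18, the most of any CD antigen gene, and only 30 of the 21938 coding genes (0.137%) had as many or more. The gene is 114 kb long, and 14 of the 18 lay in its introns. The strongest was intronic, 39481 bp from the start (12.4, 63 reads, 48.4 to 80.6), and nearly equal was the peak 253 bp upstream (12.2, 78 reads, 61.7 to 97.3), whose read count was the highest of the set. The other 16 Cd47 peaks ranged down to 3.15.

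Cd24a, a glycoprotein of immature B and erythroid cells, had 4 peaks, the strongest 246 bp upstream of the start (6.80, 27 reads). Cd52, a small glycoprotein of lymphocytes, had 4, the strongest (5.59, 21 reads) 7612 bp upstream and nearest to Ubxn11, 75 bp from its start site. Cd38, an enzyme that consumes NAD and a marker of mouse stem cells, had 2, both intronic, the stronger at 5.39 from 18 reads. Cd84, Cd93, Cd101, Cd164 and Cd248 had strongest peaks between 3.90 and 5.21, and Cd74, Cd109 and Cd320 had none.

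The windows of Cd53, Cd47 and Cd24a are shown because they hold the strongest peak of the set, the strongest at the gene with the most peaks, and a start-site peak with a Myb motif. The Cd53 window is chr3:106788652-106788752, with the match 35 to 40 bp from the summit, the Cd47 window is chr16:49839964-49840064, and the Cd24a window is chr10:43577988-43578088, with the match 39 to 44 bp from the summit. All are 101 bp of the plus strand of GRCm38 with the motif in capitals.
Cd53: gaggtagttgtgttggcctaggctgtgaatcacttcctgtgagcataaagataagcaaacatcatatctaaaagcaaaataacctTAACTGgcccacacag
Cd47: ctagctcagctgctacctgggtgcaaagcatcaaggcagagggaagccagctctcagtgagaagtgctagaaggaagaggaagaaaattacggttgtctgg
Cd24a: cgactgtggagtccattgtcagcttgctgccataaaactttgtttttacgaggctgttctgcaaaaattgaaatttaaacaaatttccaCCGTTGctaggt

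**Figure D4:**
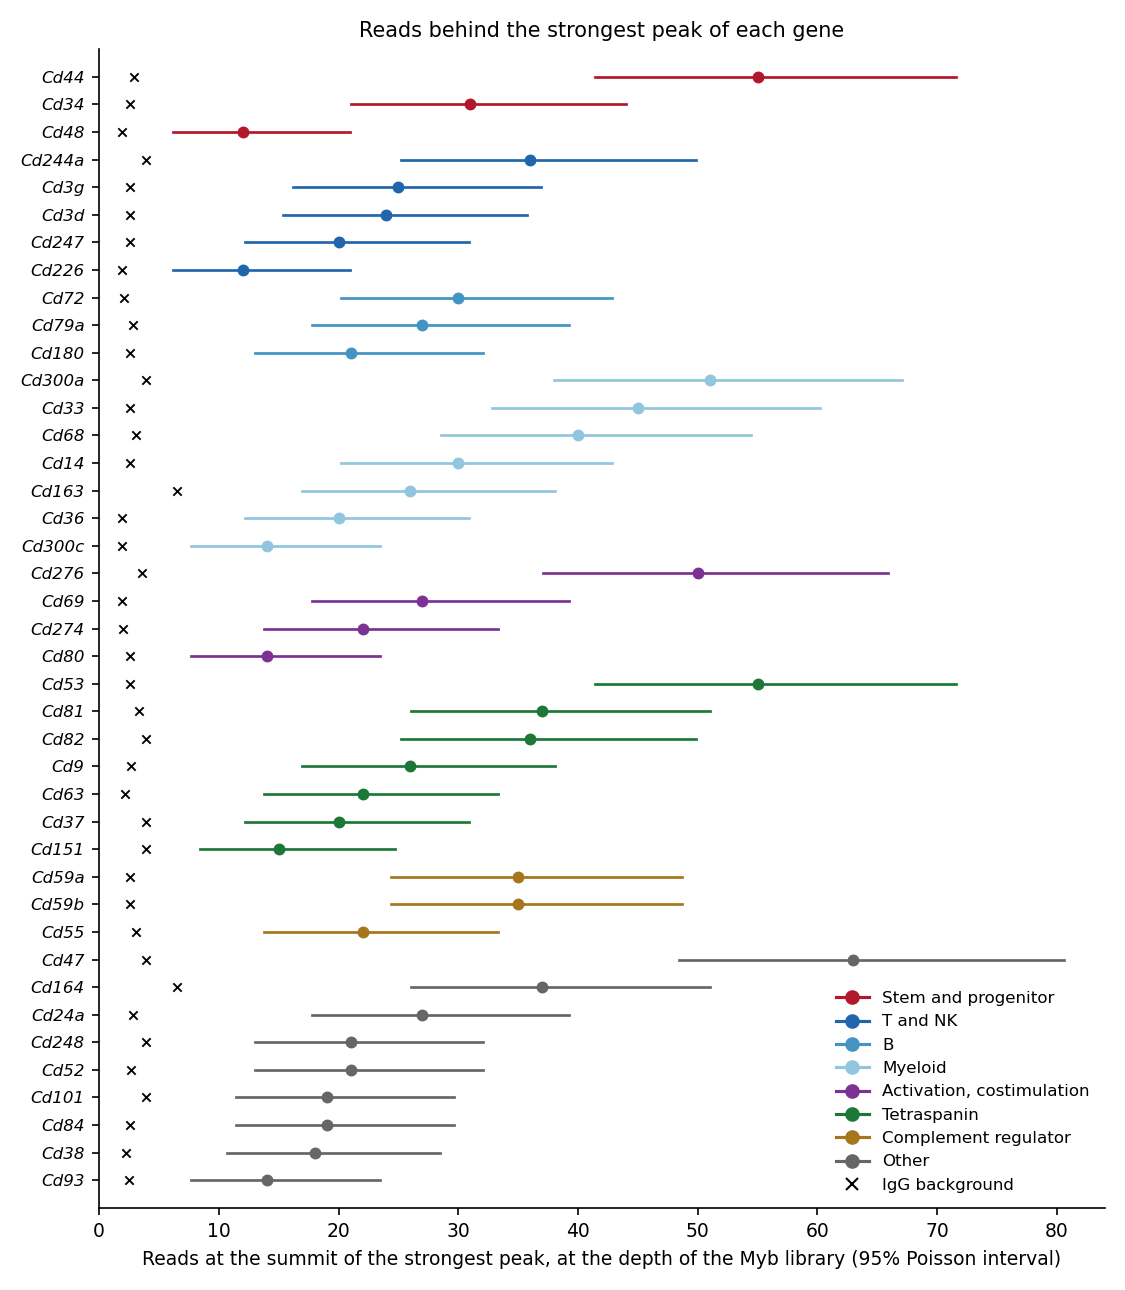
Myb reads at the summit of the strongest peak of each of the 41 CD antigen genes with a peak (points, with exact Poisson 95% intervals) and the local IgG background at the same summit (crosses), scaled to the depth of the Myb library, colored by list. Cd47 (63 reads), Cd44 and Cd53 (55 reads each) lie highest, the intervals of most neighbors in the order overlap, and Cd48 and Cd226 rest on 12 reads. The crosses of Cd48, Cd226, Cd69, Cd36 and Cd300c lie at the same lowest background, 1.90 reads, a value shared by many peaks and not particular to a summit.

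In all, 125 distinct peaks were assigned to the CD antigen genes, 0.485% of the list, and 2 of them lay in the windows of 2 genes, which gives 127 pairs of gene and peak. Their fold enrichments ran from 2.01 to 14.4 with a median of 4.69, beside a median of 4.51 over all peaks, and their summits held 10 to 78 reads with a median of 19, beside 18. Of the 127 pairs, 64 lay in introns, 34 upstream, 17 downstream, 7 in UTRs and 5 in other exonic sequence. Among the 41 marked genes, 11 had 1 peak and 12 had 2. In 7 peaks the q-value was above 0.05. The genes farthest inside and nearest outside the 10 kb limit were Cd244a, with a summit 9947 bp beyond its end, and Cd27, whose nearest summit was 10132 bp away. Cd3e, Cd4 and Cd6 had a summit at 12038, 12910 and 11855 bp, so that their lack of a peak depends on the limit, whereas Cd96 had none nearer than 369295 bp.

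A match to the Myb motif lay within 50 bp of the summit in 19 of the 125 peaks (15.2%, 9.41 to 22.7), beside 16.7% of all peaks. It was found in 3 of the 9 at stem and progenitor antigens and in 7 of the 38 at mature antigens (18.4%). Of the 41 marked genes, 16 had at least 1 peak with a match, and in 7 it was the strongest: Cd44, Cd34, Cd3g, Cd53, Cd81, Cd63 and Cd24a. Among these, the Cd3g and Cd81 peaks lay 136 and 79 bp from a start site of another gene, Ube4a and Tssc4. The share in the list as a whole thus lay inside the counting interval of the CD antigen genes. Within 25 bp of the summit the share was 9.60% at CD antigen genes beside 8.68% of all peaks, so which of the 2 was higher depended on the window.

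The start sites of the CD antigen genes differed in base composition from those of other genes, which the naming rule did not use. Only 9 of the 77 (11.7%) had a CpG-rich start, here a GC content above 50% and an observed to expected CpG ratio above 0.6 within 500 bp of the gene start, beside 44.4% of all coding genes. Among CpG-poor starts, 36 of 68 CD antigen genes (52.9%) had a peak, beside 34.7% of all protein-coding genes of that class. Among CpG-rich starts, 5 of 9 had one, beside 75.1% of all protein-coding genes of that class. The 3 stem and progenitor antigens and 39 of the 40 mature antigens were CpG-poor, and 15 of those 39 (38.5%) had a peak. The share at the 40 mature antigens (37.5%, 22.7 to 54.2) was thus below the 52.6% of all coding genes, which lay inside its interval. It was near that of the CpG-poor class. Within 3 kb of a start site it was also below that of all coding genes (20.0% beside 39.9%). There 8 of the 39 CpG-poor ones (20.5%) had a peak beside 20.5% of all CpG-poor genes. The 5 CpG-poor tetraspanins, among them Cd53, Cd82 and Cd63, all had a peak within 3 kb of a start site, though that of Cd151 had a q-value above 0.05.

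The shares were also set beside those of coding genes of like length, since a longer window can hold more summits. In genes of up to 10 kb, 11 of 26 CD antigen genes (42.3%) had a peak beside 38.3% of all coding genes, from 10 to 30 kb 15 of 27 (55.6%) beside 56.7%, from 30 to 100 kb 13 of 21 (61.9%) beside 64.8%, and above 100 kb 2 of 3 beside 61.2%. Median length was 23.3 kb for the stem and progenitor antigens, 12.5 kb for the mature antigens and 15.2 kb for the set. The part of gene length and base composition in the difference between stem and mature antigens was not tested.

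**Figure D5:**
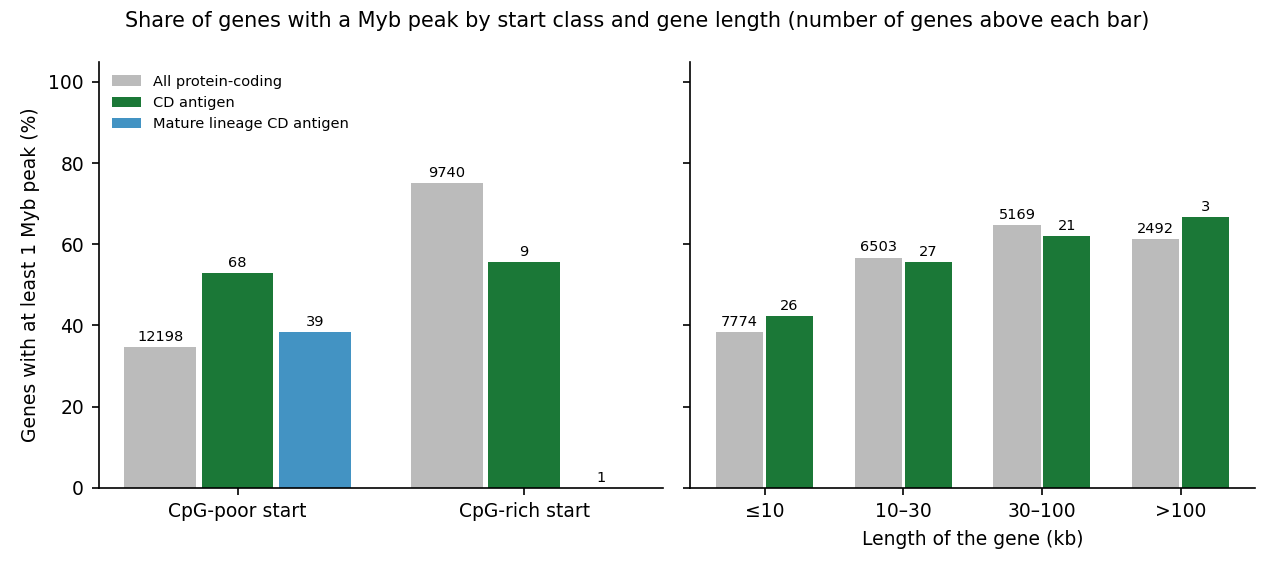
Percent of genes with at least 1 Myb peak in the gene body or within 10 kb, by the base composition of the start (left) and by gene length in kb (right), for all protein-coding genes (grey), CD antigen genes (green) and mature lineage antigens (blue, left only), with the number of genes above each bar. CpG-poor CD antigen genes (52.9%) exceed the CpG-poor class (34.7%), mature antigens (38.5%) lie near it, and within length classes the green and grey bars are close.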

How the data were processed

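Myb and IgG ChIP-Seq libraries were prepared from WT Lin- bone marrow cells, with 1 library each, and groups were taken from the sample titles. Per the labels and the study's methods, adapters were removed by the authors (Cutadapt 1.15), reads were mapped to mm10 (BWA 0.7.13) and freed of duplicates (Picard), poorly mapped and blacklisted reads were dropped, and MACS2 2.1.1.20160309 called narrow peaks over IgG. Peaks shared by pseudo-replicates (random parts of a library's reads, not independent samples) were kept. The file of the Myb library was analyzed, and the IgG library entered as its background only. The deposited fold enrichment is a ratio of the scaled Myb pileup to the local background at the summit, each raised by a pseudocount of 1, and each peak has a deposited p-value and q-value on a −log10 scale. The score column of the deposited file repeats the p-value and was not used.

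The number of reads at a summit follows from its fold enrichment and p-value, which together fix pileup and background, once the pileup is divided by the factor that scales the Myb library to the IgG library. That factor, 0.769, was estimated from the file, and with it the result was whole, within 0.01 reads, for 100% of peaks. Printed reads are unscaled. Intervals of reads are exact Poisson and those of shares exact (Clopper-Pearson) binomial, both at 95%, and PCR copies and shared source material lie outside them. The depth of the libraries is not given in the file. Genes and start sites came from GENCODE vM21, sequences from RefSeq GRCm38. No test across peaks or genes was made, since there was no replicate. Scripts were tested on simulated data. The genes and lists were chosen with earlier results of these data known. The text names every peak of the 3 stem and progenitor antigens, the 4 members of each other list with the highest fold enrichment at their strongest peak and the 10 highest of all lists, other members with a peak by value range, and members without by name, except for items not reported here. Among the strongest peaks that lay outside UTRs, sequences were printed for the stem and progenitor antigens and for 5 other genes. Some of these, as Cd3g and Cd24a, were chosen because their window held a Myb match. Matches are therefore more frequent among the printed windows than among the peaks of CD antigen genes (15.2%). Alternatives varied the peak threshold, the window, the gene assignment, the motif and the lists. Python 3.11.15, pandas 2.3.3 and scipy 1.17.1 were used.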

Additional observations from a re-analysis of the deposited data

How the results depend on the processing

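Of the 63 values recomputed under alternatives, 54 stayed within 1.5 times the count, the counting interval or the read interval, and 9 moved. With peaks of a −log10 q of at least 5, the CD antigen genes held 56 peaks, and 17 of the 77 genes had a promoter peak. The share of all coding genes with a promoter peak was not counted at this threshold. With summits in the gene body only, they held 76 peaks and 8 mature antigens had one, beside 35.4% of all coding genes. Within 50 kb they held 289 peaks and 25 mature antigens had one, beside 68.7%. The Myb motif share was 23.2% within 100 bp (30.0% of all peaks) and 56.8% for the letters AACNG (54.3% of all peaks). The stem and progenitor antigens with a peak were 9 once 8 antigens with other symbols were added. Under every alternative to the peak threshold except a −log10 q of at least 5, which left 2, and under every alternative to the window and gene assignment, all of Cd44, Cd34 and Cd48 had a peak. No paired analysis was possible because each antibody had 1 library. Differences of a few reads at a summit, as between most neighbors in the order of fold enrichment, could not be resolved at this depth.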

Other observations

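The letters of motifs of other hematopoietic factors were counted in the same 101 bp windows, on both strands and with matches allowed to overlap. The RUNX motif (TGCGGT or TGTGGT) was found at 21 of the 125 peaks of CD antigen genes (16.8%, exact binomial 95% interval 10.7 to 24.5), beside 12.2% of all peaks. At mature antigens it was found in 11 of 38 (28.9%, 15.4 to 45.9), of which 7 belonged to the 20 peaks of myeloid antigens and 4 to the 12 of T and NK cell antigens, while none of the 6 peaks of B cell antigens held it. The ETS motif (AGGAAG or CGGAAG) was found at 29 of the 125 (23.2%), beside 20.4%, and the GATA motif (GATA between A or T and A or G) at 24 (19.2%), beside 20.1%. The Cd34 peak held a GATA match and an ETS match as well as its Myb match. These shares rest on few peaks, the lists are small, and a match is not evidence that the factor binds there.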
